A study of Orbicella faveolata with 48 samples.

Results

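Fragments of the mountainous star coral Orbicella faveolata from offshore reef sites of the Florida Keys were sequenced as RNA after 5 days of heat. They make up 6 of the 48 libraries of the series and were chosen by their labels: 3 heated fragments and 3 controls, with 1 fragment in each arm from each of the tags C1, C2 and C5, taken here as colonies. At this time the tags carried the genotype labels O1, O2 and O5, in that order. Control fragments stood at 30 °C and heated fragments at 33 °C, which they reached through a gradual rise after acclimation. The material was coral tissue, without separation of the animal from its algae. A further 18 libraries of the same day, 9 inshore controls at 30 °C and 9 inshore heated fragments at 33 °C with 4 genotype labels, lent their spread to the tests. Each offshore colony gave a single fragment per arm, so variation between fragments of a colony was not measured offshore. The p-values rest on the spread left in the joint fit, which comes mostly from the inshore fragments.

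A reef-building coral is an animal that keeps photosynthetic algae inside cells of its inner tissue layer and lives largely on the sugars they release. Warm water disturbs this partnership, and the loss of algae that follows is known as bleaching. Chaperones, oxidant defences and innate immune signalling are known to respond to heat in corals. The deposited tables list assembled transcripts, here called features, by assembler identifiers that are not paired with gene names. None of these functions could therefore be assigned, and the tissue label could not be checked against marker genes. The 2 rising and 2 falling features picked by a fixed rule are the only ones given by identifier.

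The coral counts of the 6 libraries ran from 5018746 to 6674417. Each library also gave counts in a second table, marked as symbiont by its name and here called algal.

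Total algal RNA fell in all 3 colonies, far more in C1 and C2 than in C5. A part of this total, an algal set described further on, fell strongly in C5 as well. In C1 the algal share of all counts was 18.9% in the control and 1.0001% in the heated fragment. In C2 it was 14.1% in the control and 1.09% in the heated fragment, and in C5 it was 18.5% and 8.47%. Relative to coral counts the fall was 23.1-fold in C1, 14.98-fold in C2 and 2.46-fold in C5. The mean log2 change was -3.24 (SD 1.71, n = 3), and an exact sign-flip permutation test gave a two-sided p of 0.25, the smallest that 3 pairs allow. Counting error on these shares was small, with 95% Wilson half-widths up to 0.0308 percentage points; it leaves out variation between fragments. In bulk tissue, fewer algal cells and less RNA per algal cell cannot be told apart.

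**Figure D1:**
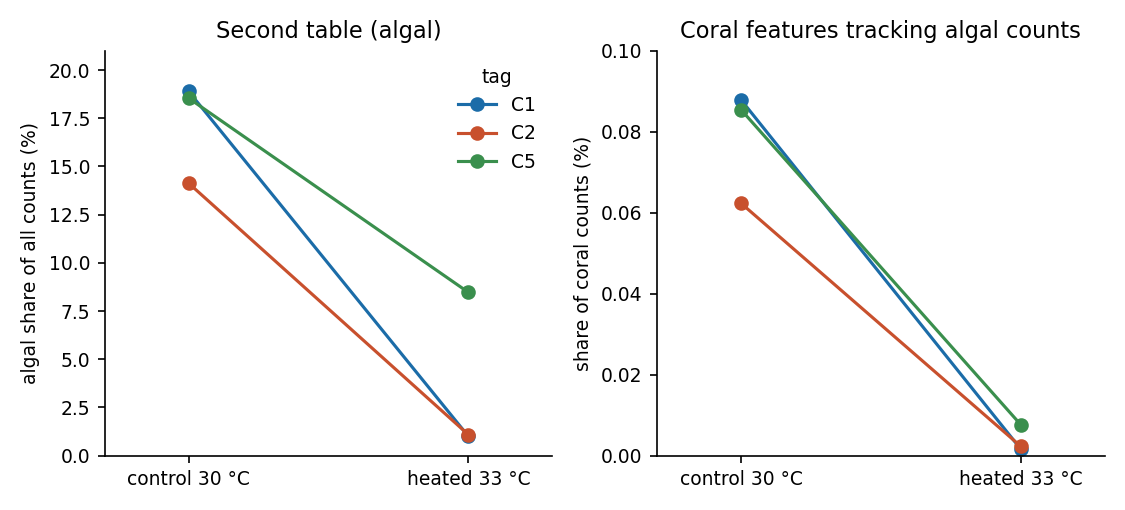
Left, the algal share of all counts (%) in the control and heated fragment of each offshore colony. Right, the share of coral counts (%) in the 48 coral-table features whose level followed algal counts in the libraries of 31 days. Lines join the fragments of a colony; C5 kept 8.47% algal counts under heat, against 1.0001% in C1 and 1.09% in C2.

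Features of the coral table responded in both directions; 39 of the falls followed algal counts in other libraries, as described further on. Of 34540 features tested, 409 rose (1.18%) and 474 fell (1.37%) under heat, 883 in all (2.56%; edgeR quasi-likelihood test, Benjamini-Hochberg adjusted p under 0.05). The rising features had a median log2 change of 1.22 and the falling features -1.21. At least 2-fold rises numbered 269 and at least 2-fold falls 286. At least 8-fold rises numbered 31 and such falls 72. Of these 72 falls, 38 were among those that followed algal counts, and 34 were not. The rising features went from a median of 11.4 counts per 1000000 coral counts (CPM) in controls to 27.2 CPM under heat, and the falling ones from 34.0 to 13.9 CPM, where the median control level of all tested features was 5.68 CPM.

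In RNA mass the changed features were a small part of the coral. Features called higher held 1.47% to 1.68% of coral counts in the controls and 2.96% to 3.27% in the heated fragments. Features called lower held 3.04% to 3.37% in the controls and 1.35% to 1.72% under heat. These shares describe features picked on the same libraries. The 100 most abundant features of a library held 15.7% to 17.5% of its coral counts in controls and 16.7% to 17.6% under heat, ranges that overlap.

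The count of calls leaned on the design. With colony tags as the block in place of genotype labels edgeR called 537, without pairing 46, DESeq2 called 1618, and the 6 offshore libraries alone gave 1 call when paired by tag. With either fragment of C1 or of C2, or both, left out, the count lay between 259 and 302.

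OFAVBQ_DN224748_c2_g1_i5, the rise with the smallest p, was low in every control. It stood at 3.20 CPM in C1, 6.19 in C2 and 3.24 in C5 at the control temperature. Under heat it reached 49.2 CPM in C1, 164 in C2 and 22.0 in C5. All heated fragments lay above all controls, with C2 the highest in both arms. The log2 change was 3.92 (SE 0.40, edgeR adjusted p = 2.9e-05), from 4.21 CPM ± 1.71 (SD, n = 3) to 78.4 CPM ± 75.3 (n = 3). The same feature rose inshore by 3.08 on the log2 scale (SE 0.23), and the difference of 0.84 (SE 0.45) did not pass (edgeR adjusted p = 0.961).

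OFAVBQ_DN224964_c3_g2_i6, the rise with the next smallest p, differed more between colonies. Its control levels were 2.20 CPM in C1, 12.04 in C2 and 18.8 in C5. Its heated levels were 63.3 CPM in C1, 387 in C2 and 66.3 in C5. Heated fragments again lay above all controls, and the paired log2 change was 4.65 in C1, 4.97 in C2 and 1.80 in C5. The joint log2 change was 3.79 (SE 0.49, edgeR adjusted p = 0.000212). A test that the colonies changed alike gave an unadjusted p of 0.000523 and did not pass across all features (edgeR adjusted p = 0.232).

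OFAVBQ_DN212043_c2_g2_i2 fell from control levels that hardly differed between colonies. They were 26.6 CPM in C1, 24.7 in C2 and 25.1 in C5. Under heat the levels were 5.39 CPM in C1, 5.14 in C2 and 10.04 in C5. C5 kept the highest level, and no heated fragment reached a control. The log2 change was -1.94 (SE 0.21, edgeR adjusted p = 6.1e-05) offshore and -1.21 (SE 0.12) inshore, a difference of -0.73 (SE 0.24) that did not pass (edgeR adjusted p = 0.847).

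OFAVBQ_DN195145_c0_g2_i3 almost vanished under heat. It had 38 counts in the C1 control, 50 in the C2 control and 49 in the C5 control, or 7.59 to 9.93 CPM. Heated fragments had 0 counts in C1, 2 in C2 and 2 in C5. The fitted log2 change of -5.22 (SE 0.58, edgeR adjusted p = 6.1e-05) rests on these few counts. Inshore the change was -0.31 (SE 0.27), and the habitats differed by -4.91 (SE 0.66, edgeR adjusted p = 0.00262). In the 24 libraries of 31 days its CPM followed the algal counts described further on with a Spearman correlation of 0.784, just under the bound of 0.8 that would have left it out of the naming rule.

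**Figure D2:**
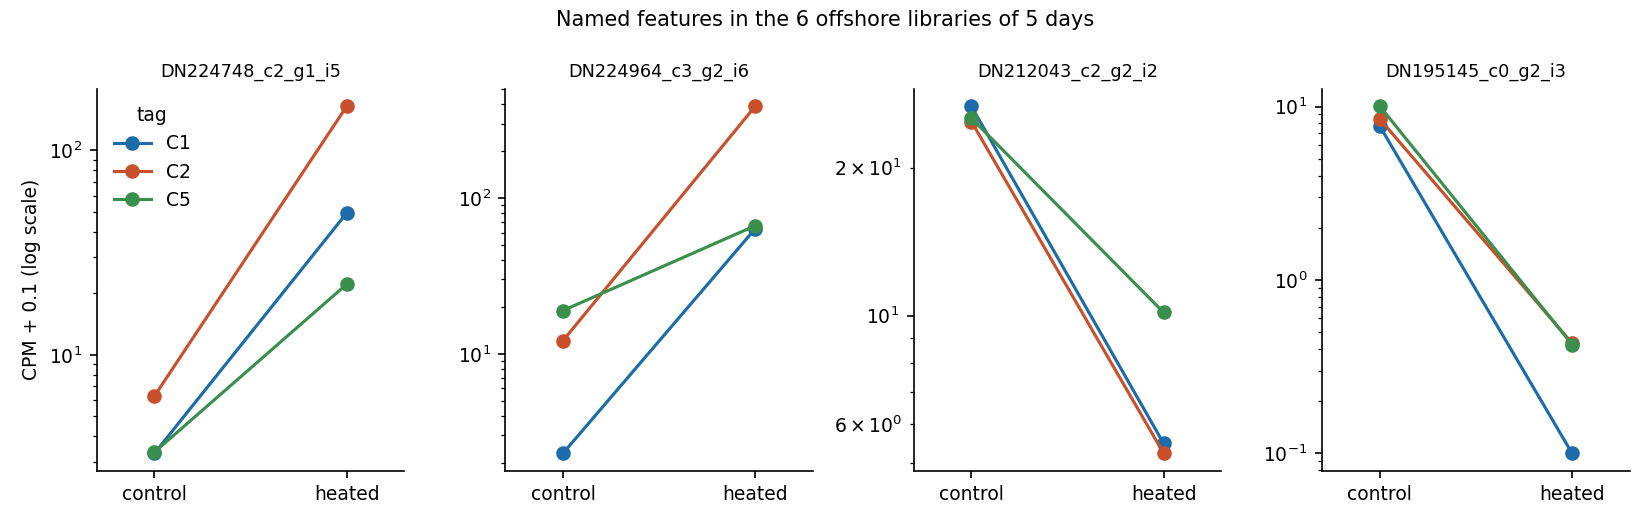
Levels of the 4 named features in the 6 offshore libraries (CPM plus 0.1, log scale), with lines joining the control and heated fragment of a colony. Every heated fragment lies beyond every control in all 4 panels, and C2 reaches the highest heated level of both rising features, 164 and 387 CPM.

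The colonies differed from each other more than heat changed them. Of the squared distances between the 6 libraries on the log2 CPM scale (prior count 2), 69.4% went with colony, 14.9% with temperature and 15.6% with neither, the last part being the unequal response of the colonies together with noise. Among the 13631 features with a mean of at least 10 CPM the shares were 66.1%, 18.8% and 15.1%. The 2 leading principal components, with 37.5% and 32.5% of the variance, set the colonies apart. Temperature stood on the third (14.8%), where the controls scored -73.3 to -37.5 and the heated fragments 47.2 to 53.3.

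The fourth component (9.73% of the variance) held opposite shifts of C2 and C5. C2 went from -49.1 in its control to 42.4 under heat and C5 from 55.6 to -57.4, while C1 moved from 13.8 to -5.31. With colony and the shared heat shift on the leading components, shifts on later ones tend to cancel over the colonies. Opposite signs there are thus partly built in. The changes of the colonies were also compared feature by feature, in the same libraries. Over the 13631 features the paired log2 changes correlated at 0.50 (Pearson) between C1 and C2, 0.41 between C1 and C5 and 0.15 between C2 and C5. Features are not independent replicates, and these values are a description. Changes of at least 2-fold in opposite directions numbered 130 between C2 and C5, of which 102 rose in C2 and fell in C5. Between C1 and C2 there were 24 such features and between C1 and C5 25. At least 2-fold changes in a shared direction numbered 327 for C2 and C5, 379 for C1 and C2 and 218 for C1 and C5.

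**Figure D3:**
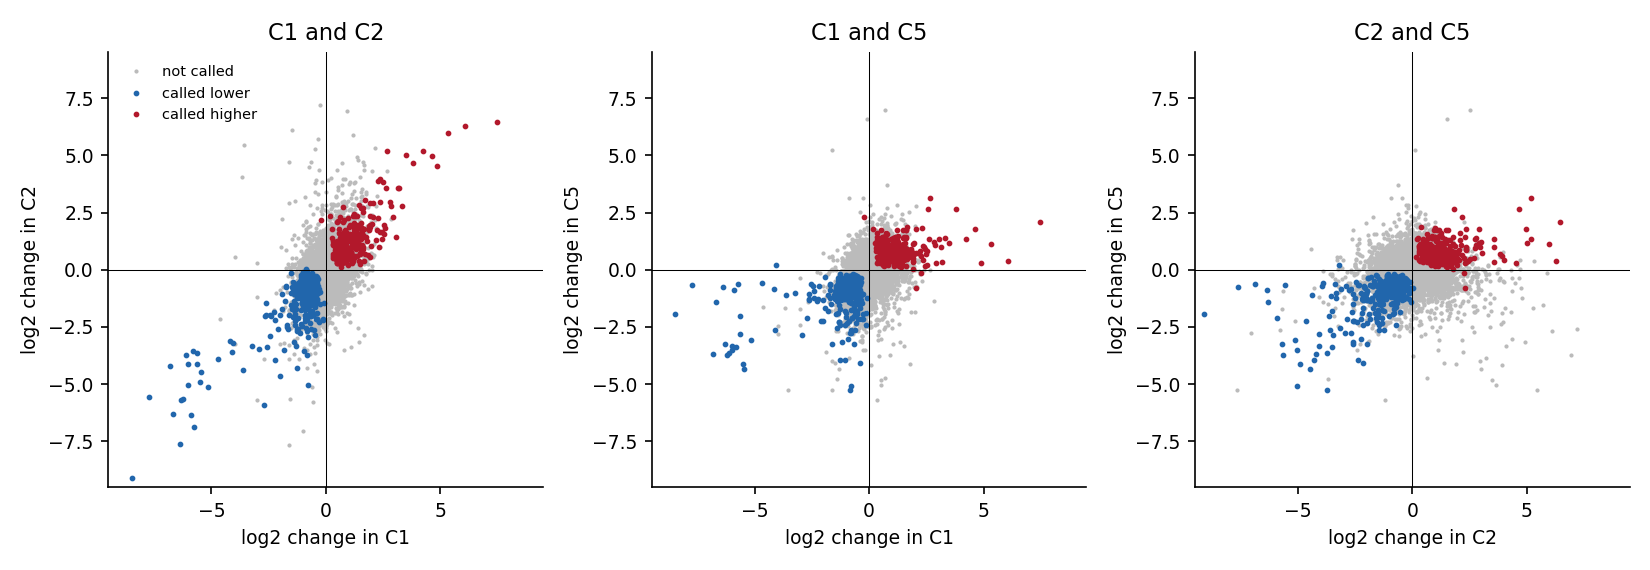
Log2 change (heated minus control) of 1 colony against another for the 13631 features with a mean of at least 10 CPM. Features called higher or lower over all 3 colonies are coloured; grey points at the lower right of the third panel are among the 102 features that rose at least 2-fold in C2 and fell at least 2-fold in C5.

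No feature was called in a test of whether the heat effect differed among the 3 colonies (edgeR, 0 of 34540, 0%). At an unadjusted p under 0.05 there were 2942, DESeq2 made 105 calls, and edgeR without a filter on low counts 102. This test has a single fragment per colony and arm and takes its spread from the inshore fragments, so the colonies are not shown to respond alike. Of the pairwise contrasts, C2 minus C5 called 1 feature (0.0029%), at 10.5 CPM in the C2 control and 0.166 CPM in the heated C2 fragment, against 10.7 and 20.7 CPM in C5. The log2 difference was -6.77 (SE 0.89, edgeR adjusted p = 0.0173), set against the spread of inshore fragments. Tested singly in that fit, C2 called 483 features (1.4%), C1 called 55 (0.159%) and C5 called 7 (0.0203%), counts that are not a test of a difference between colonies.

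Within the called features the 3 colonies mostly moved together, which a joint call favours. All 3 moved in the called direction for 398 features of the 409 called higher and for 468 of the 474 called lower. Heated and control libraries did not overlap for 296 rising and 420 falling ones, where over all tested features the heated libraries lay wholly above the controls in 6.05% and wholly below in 7.1%. C2 held the largest rise in 185 of the 409 and the largest fall in 193 of the 474. C5 held the smallest rise in 216 and the smallest fall in 204. The median log2 change of the rising features was 1.21 in C1, 1.27 in C2 and 0.89 in C5, and of the falling ones -0.95, -1.44 and -1.04. Few called features lacked counts in a whole colony: 2 of the falling features had no count in either fragment of 2 colonies, and 9 of all called features had none in 1 colony. The presence of counts does not show how far a call rests on the change of 1 colony.

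Leaving a colony out of the fit gave a view of its response that did not choose the features. With C1 left out, the other colonies called 297 features (0.821%), and 277 of them (93.3%) moved the same way in C1. With C2 left out there were 277 calls (0.764%), 223 of which (80.5%) kept their direction in C2. With C5 left out there were 633 calls (1.75%), 520 of which (82.1%) kept their direction in C5. Over all features tested the shares were 61.4% for C1, 52.9% for C2 and 55.5% for C5. A feature with no change in the colony left out counted as not moving the same way. The called lists held 33, 34 and 37 features that followed algal counts, as described further on. Without them the shares were 92.4% for C1, 77.8% for C2 and 81.0% for C5.

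The sizes were smaller in the colony left out, which is partly built in. Those from the other colonies are fitted changes of features picked for being called. Those in the colony left out are log2 CPM differences, which a prior count of 2 shrinks at low counts. Features called higher from the other colonies, at median log2 changes of 1.53 to 1.68, had a median of 0.87 in C1, 0.87 in C2 and 0.49 in C5. Features called lower, at medians of -2.07 to -1.35, had a median of -0.79 in C1, -0.63 in C2 and -0.67 in C5. Without the features that followed algal counts these falling medians were -0.65, -0.44 and -0.56. The medians over all features lay between -0.01 and 0.04. The 3 lists hold different features and differ in length, so these medians do not rank the colonies.

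**Figure D4:**
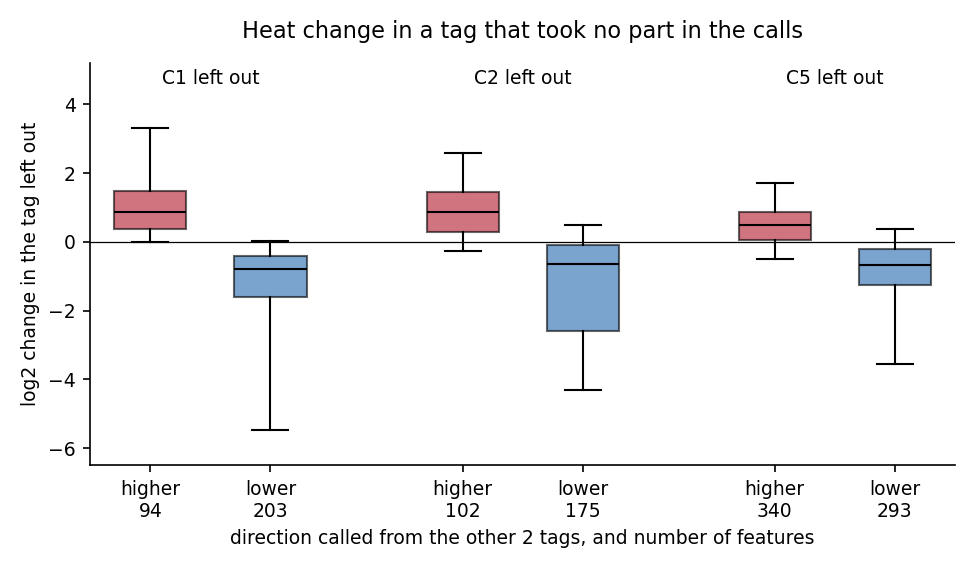
Log2 change in the colony left out, for features called from the other 2 offshore colonies, by called direction, with their number. Boxes span the quartiles with the median as a line, and whiskers the 5th to 95th percentiles. The median is above 0 for each rising list (0.87, 0.87 and 0.49) and below 0 for each falling list (-0.79, -0.63 and -0.67).

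Features that responded inshore mostly moved the same way in each offshore colony. A fit of the 18 inshore libraries alone called 1727 features higher (6.64%) and 1760 lower (6.77%) of 25994, with no offshore library in it. The rising list had a median log2 change of 0.59 inshore, and of 0.44 in C1, 0.55 in C2 and 0.45 in C5. The falling list had a median of -0.69 inshore, and of -0.50 in C1, -0.70 in C2 and -0.69 in C5. Of the rising list, 82.2% rose in C1, 83.9% in C2 and 83.0% in C5, where 51.1%, 45.7% and 51.9% of all features of the 5-day fit rose. Of the falling list, 88.1%, 85.5% and 89.4% fell, where the median log2 change of all features was 0.02, -0.01 and 0.04. C1, which lost the most algal RNA, and C5, which kept the most, had close rising medians, while their falling medians were -0.50 and -0.69. A link between algal loss and these medians was not tested. With library totals in place of TMM scaling the rising medians became 0.40 in C2 and 0.51 in C5, so their order is not fixed.

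Correlations of the change between offshore colonies lay within the wide range seen between inshore tags. The features used had a mean of at least 10 CPM in the offshore libraries, whatever their level inshore. The values were 0.15 to 0.50 between 2 offshore colonies (3 pairs). They were -0.03 to 0.67 between inshore tags of different genotype labels (median 0.33, 29 pairs). Inshore tags of the same label gave 0.18 to 0.51 (7 pairs). So few offshore values cannot show that colonies spread alike in both habitats. Each tag has its own control, so no pair shares a library. C1 and C2 were most like the inshore tag D5 (0.54 and 0.55), and C5 most like A3 (0.54). C2 and the inshore tag A4 were uncorrelated (-0.03).

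**Figure D5:**
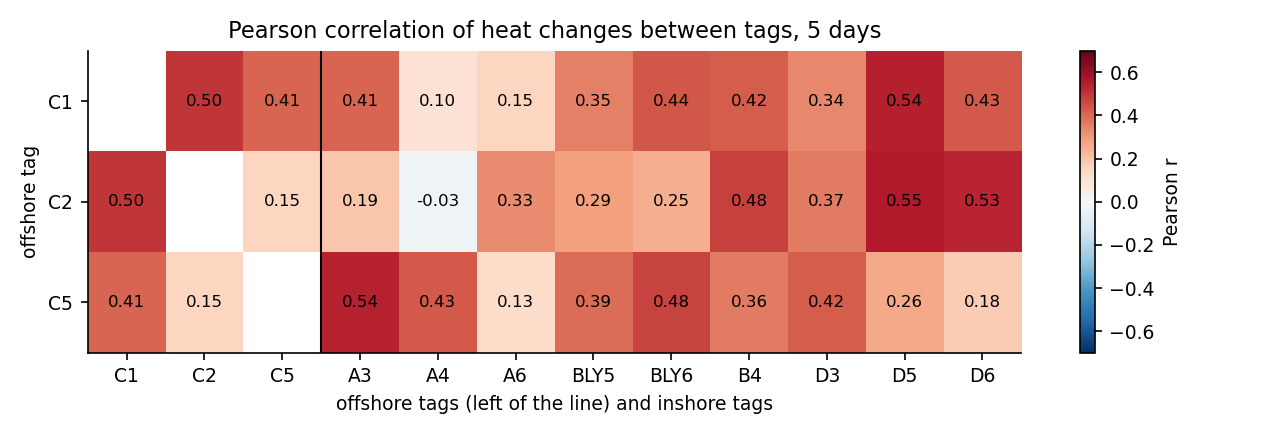
Pearson correlation of the log2 change (heated minus control) of each offshore colony with every other tag of 5 days, over 13631 features with a mean of at least 10 CPM. Colonies C2 and C5 correlate at 0.15, while C2 reaches 0.55 with the inshore tag D5 and C5 reaches 0.54 with A3.

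Part of the strongest falls went with the algae. From the 24 libraries of 31 days, which enter no test of 5 days, 48 coral-table features were picked whose CPM followed the counts of 1 algal set with a Spearman correlation of at least 0.8. That set holds the algal features typical of offshore controls, and these libraries share heat and colony besides the algae. At 5 days the set gave 182 counts per 1000 coral counts in the C1 control, 127 in C2 and 176 in C5, and 1.51, 3.48 and 13.0 in their heated fragments. It made up most algal counts of each control and the smaller part in each heated fragment. In C5 it fell far more than the algal total did, so most algal counts left there lay outside this set. Of the 48 coral-table features 40 were tested, all fell in all 3 colonies, and 39 were called lower. Their summed share of coral counts was 0.0623% to 0.0879% in controls and 0.00162% to 0.00764% under heat, lowest in C1.

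These features made up much of the large falls and little of the response as a whole. They were 32 of the 41 falls of at least 16-fold, and 39 of the 474 falls in all. The other 435 falling features had a median log2 change of -1.10, against -4.71 for the 39. The median in single colonies was -4.64 in C1, -3.65 in C2 and -3.29 in C5 over the 40 tested. These are log2 CPM differences, which the prior count of 2 shrinks at low counts, while -4.71 is a median of fitted changes. The single-colony values therefore do not rank the colonies. Without the 48 features edgeR called 804 features offshore, 388 higher and 416 lower. Whether these sequences come from the coral or from its algae was not tested.

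The offshore response differed from the inshore one in 31 of 34540 features (0.0898%, edgeR test of the difference of the heat effects). At an unadjusted p under 0.05 there were 1827, near the share of 0.05 expected where no feature differs. In 30 of the 31 the offshore minus inshore difference was negative, and 26 belonged to the 48 features that followed the algae. The other 5 were OFAVBQ_DN195145_c0_g2_i3 and 4 features described after their values were seen. A further fall, at 2.34 to 8.92 CPM in controls and 0 to 1.46 CPM under heat, had a correlation of 0.71 with the algal set. A pair of features each had counts in 1 offshore colony only. The first went from 22.7 to 2.92 CPM in C5; its offshore log2 change of -2.89 was not called (edgeR adjusted p = 0.0817), and its inshore change was 2.65, so the difference of -5.54 holds both. The second went from 51.2 to 5.97 CPM in C2, with a log2 change of -3.05 offshore (edgeR adjusted p = 0.00197) and 0.21 inshore. The only rise went from 2.68 to 4.26 CPM in controls to 5.64 to 10.04 CPM under heat, with a log2 change of 1.12 offshore and -0.08 inshore (difference 1.20, SE 0.23, edgeR adjusted p = 0.0409). Without the 48 features edgeR called 1 difference, and without either fragment of C1 or C2 11 to 13.

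The same model called 3490 features inshore (10.1%), and 303 of the 409 rising and 319 of the 474 falling offshore features were among them in the same direction. In sign alone, 403 and 465 agreed; over all tested features 68.4% had the same sign in both habitats. Fewer calls offshore do not show a smaller response, since 3 pairs stood against 9.

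At 31 days, when other offshore fragments had been held at 32 °C, edgeR called 11 features offshore (0.0312%; 3484 at an unadjusted p under 0.05). Of the 883 features of 5 days, 865 were tested again, 703 (81.3%) had the same sign and 10 were among the 11 called. Over all features tested at both times 56.6% had the same sign. The rising features had a median log2 change of 0.44 at 31 days and the falling ones that did not follow the algae -0.45. The 31-day fragments carried the tags C2, C4 and C5. Of 399 rising features tested, 335 rose in C2, 304 in C4 and 264 in C5, where 49.5%, 53.8% and 46.0% of all features rose. Of 431 such falling ones, 382 fell in C2, 292 in C4 and 301 in C5, where 48.0%, 43.7% and 51.2% of all features fell. Differences between the tags were not tested.

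Tag and genotype label part ways between the times, since tag C2 carried O2 at 5 days and O1 at 31 days. Over 39012 features, expression relative to the group mean correlated at 0.39 to 0.55 between C2 libraries of both times and at 0.39 to 0.54 between C5 libraries. C2 or C5 with another tag gave -0.48 to 0.02, and C1, which had no 31-day fragment, gave -0.12 to 0.20 with any of them. In groups of 3, deviations from the mean sum to 0, which lowers the values between different tags. The tag, not the label, thus went with the expression profile in these libraries.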

How the data were processed

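The authors deposited estimated counts per assembled transcript for coral (87440 features) and a second, symbiont table (93246 features). The tables are named for kallisto, and the submitters' processing notes name Trimmomatic 0.36 and RSEM with no role; the reference is not given in the sources used here. Values were rounded to whole counts. The 24 coral libraries of 5 days entered 1 edgeR 4.0.16 model (R 4.3.3; TMM, filterByExpr, quasi-likelihood F test, Benjamini-Hochberg adjustment at 0.05) with genotype label as a term and habitat-specific heat effects, leaving 15 residual degrees of freedom. Offshore each label is 1 tag, so this pairs the arms: same-tag deviations from group means correlated at 0.58 to 0.74, other tags at -0.41 to -0.16. A second fit gave each offshore tag its own heat effect (13 residual degrees of freedom, all inshore). DESeq2 1.42.0, other scalings, filters and blocks, and leaving out libraries were alternatives. Paired changes are differences of log2 CPM (prior count 2). An inshore coral column, BL6, was taken for tag BLY6. No 2 offshore libraries of an arm agreed within sampling noise (chi-square per degree of freedom at least 11.5). The algal set came from principal component 1 of the 12 control libraries of 31 days (features of at least 5 CPM, correlation at least 0.9). Tests were checked on simulated data. There the test that the colonies changed alike recovered few of the changes placed in a single colony, so its count of 0 has little power.

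Named features are the 2 rises and 2 falls of smallest p among called features that moved the same way in all 3 colonies and did not follow the algal set. The groups, lists and this rule were chosen with earlier results of these data known; the fit of inshore libraries alone, the split of levels at 10 CPM and the comparison of tags between times were added after the data were seen. Gene lists by product name were not used, since no names are paired with the identifiers.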

Additional observations from a re-analysis of the deposited data

Results flagged for a closer look

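The heat effects of the habitats differed, by a test of the difference itself, in 31 features, 26 of which followed an algal set in the libraries of 31 days. Among the named features, OFAVBQ_DN195145_c0_g2_i3 was picked out by the same test, with an offshore minus inshore log2 difference of -4.91 (edgeR adjusted p = 0.00262). In the contrast of C2 with C5, 1 feature was called, with a log2 difference of -6.77 (edgeR adjusted p = 0.0173). It fell from 10.5 to 0.166 CPM in C2 and went from 10.7 to 20.7 CPM in C5. Each colony gave a single fragment per arm and the spread behind this p is that of inshore fragments, so it does not show a difference beyond the variation between fragments of an offshore colony.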

How the results depend on the processing

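The 883 offshore calls became 1618 with DESeq2, 537 with the replicate block of colony tags in all 24 libraries, and 46 with no replicate block. The 6 offshore libraries alone gave 1 call when paired and 0 when not (3384 and 2151 at an unadjusted p under 0.05). Leaving out offshore fragments or colonies gave 259 to 636. The 31 differences between habitats became 61 with no filter on low counts, 17 with the replicate block of colony tags, 0 with no replicate block (697 at an unadjusted p under 0.05), 1 without the 48 features that follow the algae, 0 with a bound of 0.6 in place of 0.8 (1778), 18 without In1 and 17 without In2. Of the counts at an unadjusted p under 0.05, 1778 is near the share expected where no feature differs and 697 is below it. Leaving out offshore fragments or colonies gave 11 to 32. The count of 0 for differences among the 3 colonies became 1 with library totals, 102 with no filter, 105 with DESeq2 and 5 without In1. The causes of these shifts were not tested. The share keeping its direction was 88.6% in C2 left out with tags as a block; in C5 left out it was 72.4% with no filter and 70.5% with the 6 offshore libraries alone, paired. The share with the same sign at 31 days was 95.7% with no replicate block. Without pairing, C1 or C2 left out gave 3 and 1 calls and no share. Chosen for the same direction in every colony, the 4 named features kept their direction under every alternative that tested them, which that choice favours. They missed the threshold with the 6 offshore libraries alone, and the falling pair also with no replicate block (edgeR adjusted p = 0.202 and 0.212). Sums per Trinity gene were not run, as every identifier is a gene of its own; sums per Trinity component, chosen after seeing the data, gave 888 offshore calls. Without inshore tag BLY6 there were 885. With 3 colonies and 1 fragment per arm, changes in single colonies could be called only where large.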

Other observations

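Calls were more frequent among abundant features: 6.12% of the 1993 features with a mean of at least 100 CPM were called, 4.18% of the 11638 at 10 to 100 CPM, 1.47% of the 17632 at 1 to 10 CPM and 0.458% of the 3277 below. The median size of the called features ran the other way, with absolute log2 changes of 0.85, 1.01, 1.86 and 5.04. At low counts only large changes can be called, so neither trend describes the response apart from the power to call it. The 883 called features fell into 860 components of the assembly. In 20 components 2 or more features were called, and 3 components held both a rising and a falling feature.

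The change of a colony at 5 days was set beside changes at 31 days over 13630 features, as a description. The C2 change of 5 days correlated at 0.50 with the C2 change of 31 days, and the C5 change at 0.03 with that of C5. The C1 change of 5 days correlated at 0.55 with the C2 change of 31 days. Temperature differed between the times, 33 °C against 32 °C.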
